A study of Homo sapiens with 6 samples.

Results

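Sites of 5-formyluracil were examined in 9 human genes of DNA repair and of the replication fork: UNG, MSH3, ERCC1, FANCD2, BRCA1, SPIDR, UIMC1, RAD18 and RTEL1. The genes were chosen by the site calls themselves: each is a repair or fork gene with at least 1 listed site between its annotated start and end. That they hold a site is therefore a matter of choice and not a result. They held 10 of the 967 sites in the table, 1 in each gene except RAD18, which held 2. In all, 646 annotated genes held a site. DNA came from the human cell line CAL-62, which was established from a thyroid carcinoma. The study has 3 groups of 2 libraries, namely untreated input DNA and DNA pulled down with the azide-bearing reagent azi-BIAN, with libraries made at pH 7.2 (5-formyluracil read as T) or at pH 8.8 (read as C). During extraction all groups received tetrahydrouridine, an inhibitor of cytosine deamination. The values below are the C reads and the coverage of the 2 libraries prepared at pH 8.8, called library 1 and library 2. A share of C is a share of reads from pulled-down DNA. It was not converted into the part of DNA molecules that carry 5-formyluracil. Values of the input and pH 7.2 libraries were not analysed here, so the level of C at these positions without the pull-down or at neutral pH is not part of these values.

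5-Formyluracil arises when the methyl group of thymine is oxidised, and it can mispair with bases other than adenine. It is a substrate of base excision repair, in which a glycosylase removes the damaged base before the strand is cut and refilled. Other lesions go to mismatch repair, nucleotide excision, interstrand crosslink repair or homologous recombination, and forks that meet damage are bypassed or remodelled. A site within one of these genes is a property of the gene's DNA. Expression of the genes and activity of their products were not measured.

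Of the 9 sites in genes with a start in the table (all but SPIDR), the UIMC1 site lay closest to an annotated transcription start of its gene, and the ERCC1 site came next. The start windows of these genes are shown because they lie nearest to a site among those 9. Each runs from 250 bases before to 50 bases after the start, on the strand of the gene, in RefSeq's GRCh38.p14, with every CG dinucleotide in capitals.
UIMC1, chr5:177006745-177007044, minus strand: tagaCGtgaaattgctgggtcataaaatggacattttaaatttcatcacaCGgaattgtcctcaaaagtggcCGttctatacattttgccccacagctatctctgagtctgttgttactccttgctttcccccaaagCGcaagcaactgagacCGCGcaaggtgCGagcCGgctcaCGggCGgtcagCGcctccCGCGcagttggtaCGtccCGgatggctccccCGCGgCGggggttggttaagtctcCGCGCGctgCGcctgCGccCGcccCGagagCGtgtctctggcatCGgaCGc
ERCC1, chr19:45423479-45423778, minus strand: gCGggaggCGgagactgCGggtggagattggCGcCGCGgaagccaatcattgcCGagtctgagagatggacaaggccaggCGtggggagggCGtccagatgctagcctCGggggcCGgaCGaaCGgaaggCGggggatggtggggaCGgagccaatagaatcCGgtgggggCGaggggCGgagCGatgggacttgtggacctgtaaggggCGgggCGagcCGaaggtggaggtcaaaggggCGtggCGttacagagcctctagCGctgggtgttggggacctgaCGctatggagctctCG

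Neither window held a site. The UIMC1 site lay 276 bases beyond the upstream edge of its window, and the ERCC1 site 1631 bases beyond the downstream edge. CG occurred 28 times in the UIMC1 window and 27 times in the ERCC1 window, against a median of 14 over the 35116 windows of the table. CG reads the same on both strands, and 96.0% of all windows held at least 1. At least as many CG as in the UIMC1 window were found in 26.2% of windows, and at least as many as in the ERCC1 window in 28.2%. T, the base from which 5-formyluracil forms, made up 23% of the UIMC1 window and 14% of the ERCC1 window, with a median of 20.7% over all windows. Starts were matched for 8 of the 9 genes, all but SPIDR. Of the 967 sites, 912 lay on chromosomes with a start in the table. Values over all windows, and gene strands taken from them, therefore do not cover every chromosome that holds a site. No sequence around the sites themselves was used here.

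The place of each site in its gene was asked first, beginning with excision and mismatch repair. UNG encodes the glycosylase that removes uracil from DNA (chromosome 12, 109097597 to 109110992, GRCh38). Its site at position 109104316 was 50.2% of the way along this gene of 13.4 kb, 6144 bp downstream of the nearest annotated start. MSH3, a subunit of the mismatch repair complex that recognises insertion and deletion loops, spans 222 kb (chromosome 5, 80654652 to 80876815). Its site at position 80876571 lay 244 bp inside the 3′ end of the gene. Of the 429 sites in protein-coding genes of known strand, 1 lay that close to a 3′ end (0.233%), which is the MSH3 site itself. The cut-off was the distance of this same site, so the share is a description and no test of rarity. ERCC1 is a subunit of the endonuclease that cuts the damaged strand in nucleotide excision repair (chromosome 19, 45407334 to 45451547). The table lists 3 starts for it. The site at position 45421848 was 29699 bp from the outer 5′ end of the gene but 1680 bp downstream of the nearest of these starts.

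Among the genes of crosslink repair and recombination, FANCD2, which is ubiquitinated at stalled forks in the Fanconi anaemia pathway, spans 75.5 kb (chromosome 3, 10026437 to 10101932). Its site at position 10083589 was 75.7% along the gene and also lay within FANCD2OS, an overlapping protein-coding gene. BRCA1, which promotes recombination and protects stalled forks, spans 126 kb (chromosome 17, 43044295 to 43170327). The site at position 43120893 lay 49434 bp from the outer 5′ end of the gene and 4471 bp downstream of the nearest annotated start. SPIDR, a scaffold protein of homologous recombination, is the longest of the 9 genes at 475 kb (chromosome 8, 47260878 to 47736306). The site at position 47719441 lay 16865 bp from its end of higher coordinate. UIMC1 encodes the ubiquitin-binding subunit of the BRCA1-A complex (chromosome 5, 176905005 to 177022602). Its site at position 177007320 lay 526 bp upstream of 1 annotated start and 15282 bp inside the outer 5′ end of the gene. Of the 912 sites on chromosomes with starts in the table, 18 (1.97%) lay within 526 bp of any annotated start, and the median distance was 20.4 kb. The cut-off of 526 bp was taken from the UIMC1 site, so this share too is a description only.

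The remaining sites lay in genes that act at the replication fork. RAD18 encodes a ubiquitin ligase that modifies the sliding clamp PCNA so that damage can be bypassed (chromosome 3, 8877075 to 8963472). It held sites at positions 8902980 and 8902983, about 70.0% of the way along the gene. The reference base of the plus strand was T at the lower position and A at the higher, so the 2 thymines lay on opposite strands with a distance of 3 bp. RTEL1 encodes a helicase that unwinds telomeric loops and recombination intermediates (chromosome 20, 63657810 to 63696253). Its site at position 63688514 was 79.9% along the gene and also lay in the overlapping readthrough gene RTEL1-TNFRSF6B. Exons, introns and UTRs were not analysed here.

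**Figure D1:**
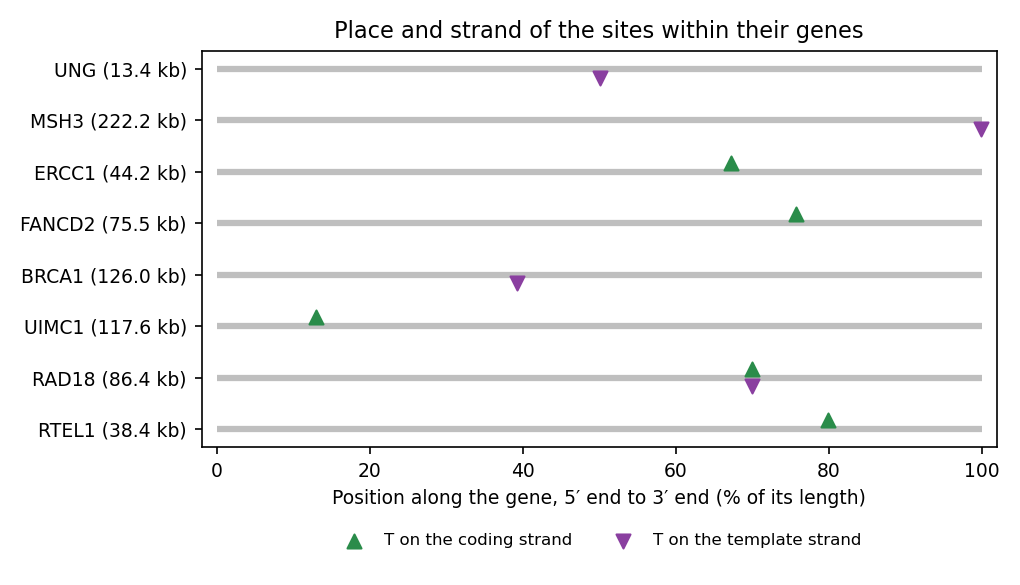
Position of the sites along their genes, in percent of gene length from the 5′ end (0) to the 3′ end (100), for the 8 genes whose strand was known; triangles pointing up mark a T on the coding strand, triangles pointing down a T on the template strand. The UIMC1 site lies near the 5′ end (13.0%), the MSH3 site at the 3′ end (99.9%), and the others between 39.2 and 79.9%.

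The thymine lay on the strand that serves as template for transcription at UNG, MSH3, BRCA1 and the lower RAD18 position. It lay on the coding strand at ERCC1, FANCD2, UIMC1, RTEL1 and the higher RAD18 position. That is 5 of 9 sites on the coding strand, beside 216 of 422 (51.2%) over all sites in protein-coding genes of 1 known strand. By genome strand, 4 of the 10 thymines were on the plus strand and 6 on the minus strand, a count not set against all sites here. Outside the RAD18 pair, the nearest other site was 113 kb (FANCD2) to 9417 kb (MSH3) away. The rule's bounds were the gene ends: the site just inside them was that of MSH3, and the nearest site outside any of the 9 genes lay 94.4 kb beyond FANCD2.

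The share of reads with C was asked next. Over summed reads it ran from 23.8% at the higher RAD18 position to 36.4% at ERCC1, in a table that lists only shares between 20 and 50% in each library. In UNG, 8 of 23 reads had C in library 1 (34.8%) and 4 of 13 in library 2 (30.8%). In MSH3 the values were 3 of 10 (30.0%) and 4 of 16 (25.0%), the lowest numbers of C reads that the table admits at that coverage. ERCC1 had 12 of 34 reads (35.3%) and 4 of 10 (40.0%), and its 36.4% over the summed reads was the highest of the 10 sites. In the order of all 967 sites by that share, ERCC1 ranked 77 (14 sites at this rank, itself included), UNG 152 (55 sites) and MSH3 599 (21 sites). Tied sites were all given the highest rank of the tie.

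FANCD2 had the smallest gap between libraries, with 10 of 39 reads (25.6%) and 6 of 23 (26.1%). BRCA1 had the widest gap, with 5 of 12 reads (41.7%) in library 1 and 3 of 11 (27.3%) in library 2. In SPIDR, 11 of 45 reads (24.4%) and 4 of 14 (28.6%) had C. UIMC1 had 3 of 11 reads (27.3%) and 7 of 29 (24.1%). As a mean of the libraries, BRCA1 reached 34.5% ± 10.2 (SD, n = 2), against 25.9% ± 0.315 for FANCD2, 26.5% ± 2.92 for SPIDR and 25.7% ± 2.22 for UIMC1.

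At the lower RAD18 position, 8 of 31 reads (25.8%) had C in library 1 and 3 of 12 (25.0%) in library 2. At the higher position the values were 7 of 31 (22.6%) and 3 of 11 (27.3%). The 2 positions lie 3 bp apart and had equal coverage in library 1 and 12 against 11 reads in library 2. They can therefore be covered by the same reads and are not independent. Both were nevertheless counted in every total over the 10 sites, and 1 alternative kept only 1 of them. With 23.8% of summed reads, the higher position had the lowest share of the 10 sites. RTEL1 ran opposite to BRCA1, with 5 of 18 reads (27.8%) in library 1 and 4 of 10 (40.0%) in library 2, a mean of 33.9% ± 8.64 (SD, n = 2).

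**Figure D2:**
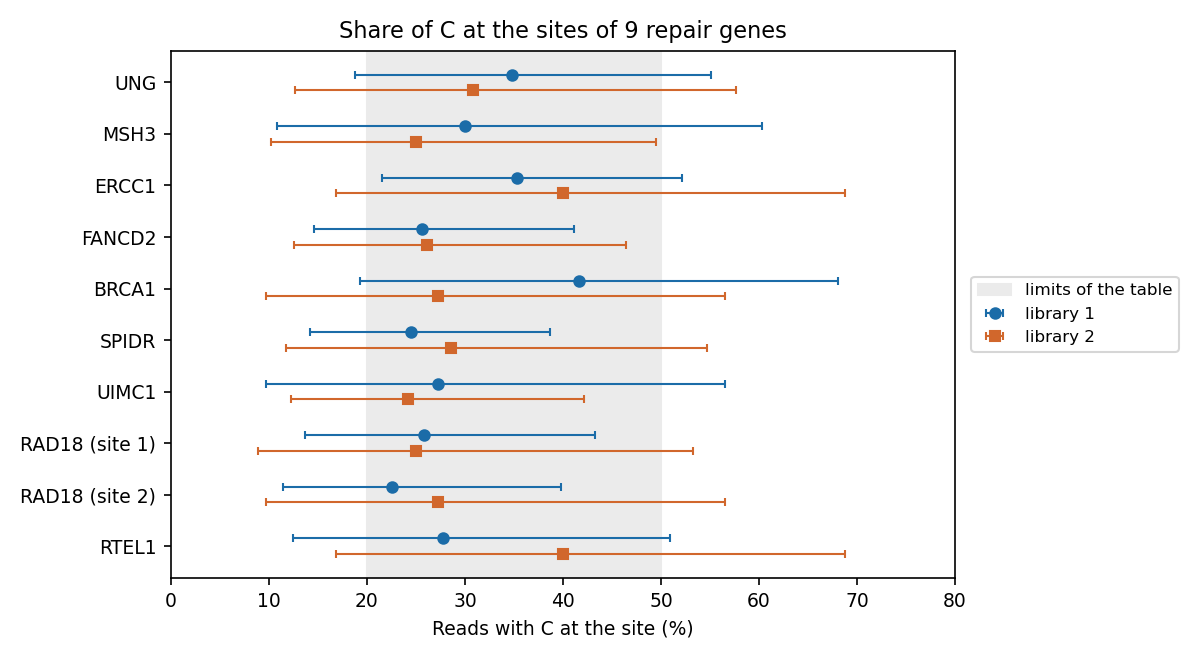
Reads with C in percent of coverage at each of the 10 sites, in library 1 (circles) and library 2 (squares), with 95% Wilson intervals as bars; the shaded band spans the limits of the table, 20 to 50%. The intervals of the libraries overlap at every site, and the widest gap is that of BRCA1 (41.7% against 27.3%).

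The 95% Wilson intervals over summed reads ran from 23.8 to 51.1% at ERCC1 and from 13.5 to 38.5% at the higher RAD18 position, and they overlap. All 10 intervals held 28.9%, the share over the summed reads of the whole table. The order of the genes was therefore not resolved at this depth. Since the table lists no share outside 20 to 50%, differences among the genes are bounded by its limits. The overlap does not show that their shares of C were alike. Between libraries, the two-sided Fisher exact test, adjusted by Benjamini-Hochberg over all 967 sites, called 0 of the 10 sites, and 0 at an unadjusted p under 0.05. Over the whole table it called 0 sites (0%) by either rule. The smallest unadjusted p was that of BRCA1 (Fisher's exact p = 0.667), where library 2 was lower by 14.4 percentage points (difference -14.4, 95% interval -46.1 to 22.4). At RTEL1 library 2 was higher by 12.2 points (-20.5 to 44.8). No value in the table rested on fewer than 10 reads or 3 C reads, and every share lay above 20% and under 50%. These limits hold in both libraries, so they also bound the gap between libraries before any test. The widest gap at any of the 967 sites was 26.3 points, and the test called none of them. At this depth and within these limits the test could call little, so it does not show that the libraries were alike. PCR reads are not independent molecules, and the intervals cover counting error only.

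Over the 10 sites, the mean share was 29.5% in library 1 and 29.4% in library 2, a mean of 29.5% ± 0.0817 (SD, n = 2). The other 957 sites had 29.4% ± 0.857. The share was higher in library 1 at 5 of the 10 sites (41.9% of all sites) and higher in library 2 at 5. Opposite gaps therefore partly cancel in the SD of the 10 sites. That SD does not measure the gap at a site, and it does not show closer libraries at these genes. The summed reads of the 10 sites held 114 C reads of 403 (28.3%, 95% Wilson interval 24.1 to 32.9), beside 28.9% over the other sites. Reads that cover both RAD18 positions are counted at each of them, which the interval does not allow for. The shares of the 10 sites and of the other sites come from a table in which every share lies between 20 and 50%. The number of C reads was the lowest that the limits allow in 7 of the 20 member values, beside 49.5% of all 1934 values. MSH3 and the higher RAD18 position, 2 of the 10 sites, were at that lowest number in both libraries, beside 232 of all 967 sites (24.0%). A further 9 member values lay 1 C read above the lowest number, a count not made over all sites here. The largest distance above it was at ERCC1 in library 1, with 5 C reads more than the lowest. Mean coverage was 25.4 reads at the 10 sites and 17.3 at the other sites in library 1. In library 2 it was 14.9 and 15.3, and the counts were not adjusted for coverage. The members were listed with these values known, and no test was made of these counts.

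**Figure D3:**
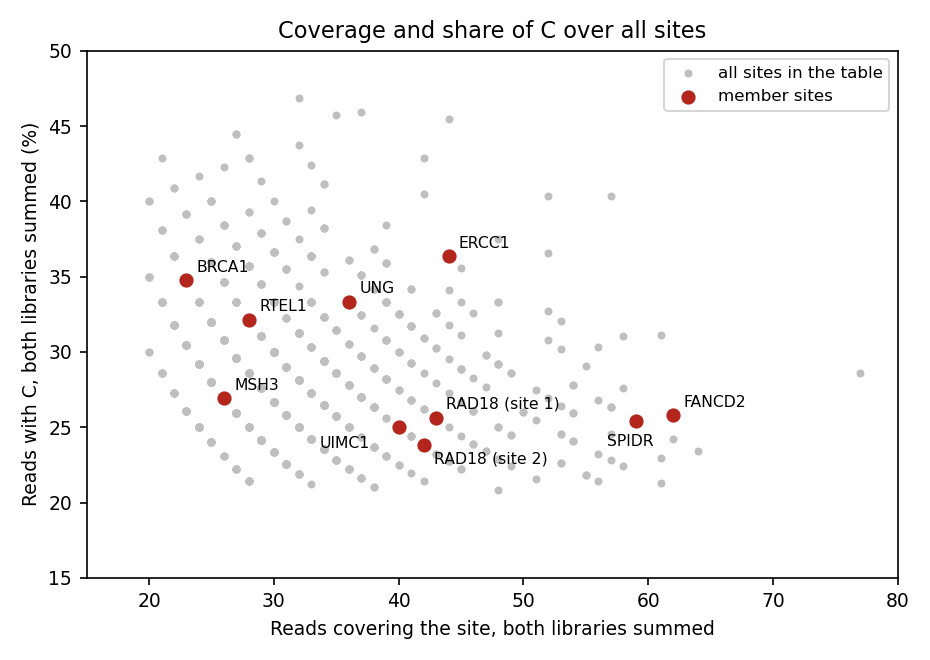
Reads with C (percent, both libraries summed) against coverage (reads, both libraries summed) for all 967 sites (grey) and the 10 sites of the repair genes (red, named). FANCD2 (62 reads) and SPIDR (59 reads) lie far to the right, ERCC1 is the highest of the 10 at 36.4%, and all 10 lie inside the cloud of the other sites.

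Coverage at the 10 sites ran from 23 to 62 reads over both libraries. The highest coverage at any listed site was 45 reads in library 1 and 48 in library 2. FANCD2 had 62 reads over both libraries and ranked 3 of 967, a rank shared with other sites of 62 reads. SPIDR had 59 and ranked 9, and its 45 reads in library 1 were the most at any site of that library. BRCA1 had the fewest of the 10 with 23 reads (rank 882), and MSH3 followed with 26 (rank 740). The median of the 10 sites was 27 reads in library 1 and 12.5 in library 2, against 16 and 14 at the other sites.

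Library 1 covered 8 of the 10 sites more deeply than library 2, all but MSH3 (10 and 16 reads) and UIMC1 (11 and 29 reads). Over the whole table it did so at 59.0% of sites. At each site the part of the reads that came from library 1 was compared with its table-wide share (53.2%) by a two-sided exact binomial test, chosen after seeing the data. It compares these 2 libraries of 1 condition. At an unadjusted p under 0.05 it called 74 of the 967 sites (7.65%), and 5 of the 10 sites were among them. The 5 include both RAD18 positions. Listed sites have at least 10 reads in each library, so the compared counts were cut off at the low end. The test can call more at deeper sites, and mean summed coverage was 40.3 reads at the 10 sites against 32.5 at the others. The 5 of 10 is therefore not read as a trait of these genes. ERCC1 had 3.4 times as many reads in library 1 as in library 2 (34 and 10 reads, exact p = 0.00131, adjusted p = 0.115), and SPIDR 3.21 times as many (45 and 14, exact p = 0.000354, adjusted p = 0.0684). UIMC1 went the other way, with 2.64 times as many in library 2 (exact p = 0.00128, adjusted p = 0.115). The RAD18 positions had 31 and 12 reads (exact p = 0.0141, adjusted p = 0.333) and 31 and 11 reads (exact p = 0.00809, adjusted p = 0.256), and can share reads. After Benjamini-Hochberg adjustment over all sites, 3 of the 967 sites (0.31%) and 0 of the 10 were called. With equal shares of the libraries as the expectation, the exact binomial test called 5 of the 967 sites (0.517%), and SPIDR was among them (adjusted p = 0.0198). The depth of the libraries outside the listed sites was not analysed here.

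**Figure D4:**
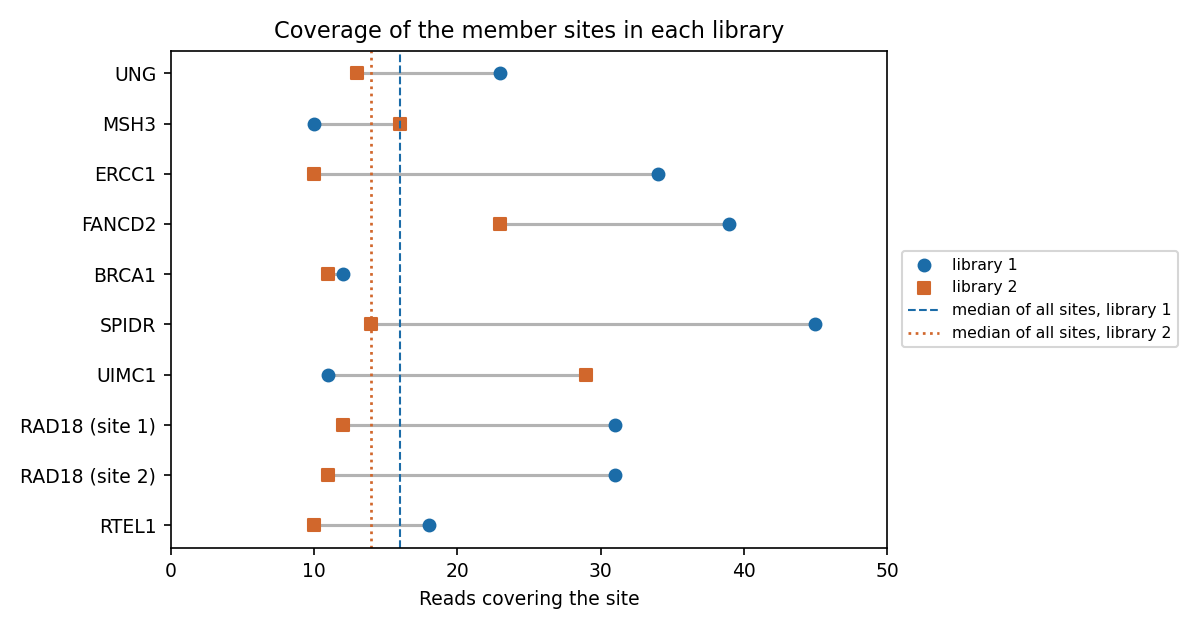
Reads covering each of the 10 sites in library 1 (circles) and library 2 (squares), joined by a line; dashed and dotted lines give the medians over all 967 sites (16 and 14 reads). SPIDR, ERCC1 and both RAD18 positions are far deeper in library 1, UIMC1 is deeper in library 2, and BRCA1 has 12 and 11 reads.

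The other genes of the same pathways were counted from 8 lists with 103 genes, which were drawn up with the 9 genes known and include them. In these lists 11 genes held a site, the 9 described and 2 more, 1 of mismatch repair and 1 acting at the fork. Of all annotated genes 1.08% held a site, and of protein-coding genes 2.56%. Since the lists were built around genes with a site, their count is not read against those shares. Gene length also differed: the 9 genes had a median length of 86.4 kb, the listed genes 40.3 kb and all protein-coding genes 24.1 kb. Base excision repair had a site in 1 of 17 genes, which was UNG, and mismatch repair in 2 of 8. Nucleotide excision repair had 1 of 15 (ERCC1), crosslink repair 1 of 14 (FANCD2) and homologous recombination 2 of 19 (BRCA1 and SPIDR). The BRCA1-A complex had 1 of 5 (UIMC1), post-replication repair 1 of 12 (RAD18) and the fork helicases and remodellers 2 of 13. In most genes of each list no site was listed.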

How the data were processed

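The series holds 6 genomic DNA libraries of CAL-62 cells. Per the submitters' processing notes, hg38 and the tools Trim Galore, Bowtie2 and MACS2 2.2.6 were used. The site caller and its settings were not given in the sources used here. Per the file headers, the deposited counts give coverage and C reads at each site for both pH 8.8 libraries, and the deposited fraction is their quotient, which matched at all 967 sites (tolerance 1e-09). A second deposited table gave the other values used, the reference bases; its 10 number columns carry no header and were not used. Total depth of the libraries is unknown here.

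Sites were assigned to genes by start and end in RefSeq (GRCh38.p14, 59675 genes), and gene strands were taken from its start windows. Wilson intervals (95%), Newcombe intervals of differences, Fisher's exact tests and exact binomial tests with Benjamini-Hochberg adjustment over all sites were computed (threshold 0.05). Of these, only the Fisher test of shares and the binomial test of coverage were tried on simulated data. The simulated difference in share was wider than any gap at a listed site, so the trial gives no power for the gaps seen here. All 9 genes and all their sites are named. Members, gene lists and tests were chosen with earlier results of these data known. The labels do not say whether separate cultures gave the libraries, so p-values measure differences between these libraries. The alternatives tried were other coverage minimums, gene bounds, intervals and tests, and single libraries. Calculations used scipy 1.17.1, pandas 2.3.3 and numpy 2.4.6 under Python 3.11.15, and plots matplotlib 3.10.9.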

Additional observations from a re-analysis of the deposited data

How the results depend on the processing

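The mean C share over the 10 sites (29.5%) moved by more than the SD of the 2 libraries, which is only 0.0817 points, under 5 alternatives: to 28.3% from summed reads, 27.6% at a minimum of 12 reads in both libraries (4 sites), 25.9% at 15 reads (1 site, FANCD2), 30.0% with 1 site per cluster, and 31.2% without chromosome 3 (7 sites, chosen after seeing the data). Opposite gaps between the libraries partly cancel in that SD, so a move beyond it says little. All 5 means lie within the Wilson interval of the summed reads. That interval belongs to the summed reads, and the alternatives use the same reads or part of them, so this is no test of stability. Without each replicate in turn it was 29.4 to 29.5%. A minimum of 15 reads left 1 gene with a site and 1 site on the plus strand, by construction, since 9 of the sites have fewer reads in a library. With gene ends moved inwards by 1 kb, 8 genes held a site (MSH3 was lost), and with ends moved outwards 9 did. The count of sites whose share differed between libraries stayed at 0 unadjusted and by an exact binomial test of the C reads (0 there unadjusted too). The count whose coverage differed, 0 after adjustment, was 5 unadjusted (74 of all 967 sites). It was 1 with equal shares expected (5 of all 967 sites). Clopper-Pearson intervals had a median width of 29.2 points against 26.7. Coverage of 10 to 45 reads a library limits every value. No paired analysis was possible because values of 1 group only were used.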
